A study of Mus musculus with 4 samples.

Results

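Runx2 occupancy was examined at the 8 *Smad* genes of the mouse, *Smad1* to *Smad7* and *Smad9*, and at the genes of the Smad ubiquitin ligases, *Smurf1* and *Smurf2*, which are 10 of the 22359 protein-coding genes of the mm9 annotation. Each gene was given a window that held the gene body and 20 kb on each side, and every Runx2 peak that overlapped the window by at least 1 bp was counted as a peak of that gene. On days 0, 9 and 28 the 10 windows held 49, 96 and 65 peaks, of 25457, 60596 and 40330 in the respective lists. Runx2 was immunoprecipitated with antibody M70 from MC3T3-E1 subclone 4, a clonal C57BL/6 calvarial preosteoblast line, and the recovered DNA was sequenced (ChIP-Seq). Day 0 cells were proliferating preosteoblasts, day 9 cells were depositing matrix and day 28 cells were mineralizing, with ascorbic acid and beta-glycerophosphate added to induce differentiation. Replicate libraries of a time point were pooled before peaks were called against input DNA of day 9 cells, so each time point has 1 list and no replicate error, and differences between time points are described without a test. The lists hold no read counts, so the depth behind a single peak is unknown, but the study lists the most raw reads for day 0, the time point with the fewest peaks. They hold no expression values, so markers of the cell type were not checked.

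Smads carry the signals of transforming growth factor beta (TGF-beta) and of the bone morphogenetic proteins (BMPs) from receptors at the cell surface to the nucleus. Activated receptors phosphorylate the receptor-regulated Smads, which then join the common Smad, Smad4, and act on target genes, while the inhibitory Smads, Smad6 and Smad7, damp the signal. Smurf1 and Smurf2 are ubiquitin ligases of the HECT class that mark Smads, receptors and, in bone cells, Runx2 itself for degradation. Runx2 binds DNA through its Runt domain and works together with receptor-regulated Smads in osteoblasts.

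The known core of the Runx2 site is TGTGGT, or ACCACA when read on the other strand. The sequences printed here show this core, in capitals, within 50 bp of the centre of day 9 peaks away from gene starts, and are the highest-ranked 1 or 2 such peaks at each of 4 genes. Such peaks at *Smad2*, *Smad4* and *Smad7* are not printed. The highest at each of these stood at percentiles 33.5, 62.4 and 74.5 of the day 9 list by score. All sequences printed are plus-strand mm9 sequence, 5′ to 3′, outside exons.
Smad3 intron 1, 31.4 kb from the gene start, chr9:63574364-63574464: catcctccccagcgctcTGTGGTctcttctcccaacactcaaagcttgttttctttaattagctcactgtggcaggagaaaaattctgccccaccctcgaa
Smad3 intron 1, 20.2 kb from the gene start, chr9:63585545-63585645: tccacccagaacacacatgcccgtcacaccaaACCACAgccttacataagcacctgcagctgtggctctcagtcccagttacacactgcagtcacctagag
Smad6 intron 1, 4.13 kb from the gene start, chr9:63865681-63865781: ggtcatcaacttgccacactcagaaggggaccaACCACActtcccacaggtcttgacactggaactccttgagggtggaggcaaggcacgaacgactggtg
Smad6 intron 3, 59.2 kb from the gene start, chr9:63810566-63810666: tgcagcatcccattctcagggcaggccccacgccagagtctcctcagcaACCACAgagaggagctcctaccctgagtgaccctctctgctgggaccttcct
Smurf1 intron 5, 66.9 kb from the gene start, chr5:145659812-145659912: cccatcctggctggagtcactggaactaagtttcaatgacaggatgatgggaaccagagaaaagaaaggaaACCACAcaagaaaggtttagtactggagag
Smad1, 75.3 kb from the gene start and beyond its end, chr8:81848030-81848130: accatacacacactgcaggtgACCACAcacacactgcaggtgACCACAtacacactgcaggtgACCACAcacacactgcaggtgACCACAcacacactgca
In the order printed, these peaks stood at percentiles 97.4, 93.7, 84.4, 67.9, 75.9 and 90.3 of the day 9 list when ranked by score. The stretch beyond *Smad1* differs from the others in that it holds 4 copies of the core, each 21 bp from the next, within a tandem repeat, and the effect of this repeat on read mapping was not tested.

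The peaks were spread unevenly over the 10 genes, with many at *Smad3*, *Smad6* and *Smad7*, and at day 9 also at *Smurf1*, and few at the other Smads. *Smad3*, *Smad6* and *Smad7* together held 65.3% of the day 0 peaks of the 10 windows (32 of 49), 63.5% of the day 9 peaks (61 of 96) and 69.2% of the day 28 peaks (45 of 65). At day 9 *Smurf1* had 13 peaks, as many as *Smad7*, and it had more than *Smad7* with the gene body alone, with 10 kb on each side, or with peaks closer than 500 bp joined, and fewer in 4 of the other settings tried. With a p-value of 1e-50, and also with lists of equal length, *Smurf1* had 3 day 9 peaks and *Smad7* had 9. Every one of the 10 windows held at least 1 peak in each list, and so did 65%, 77% and 71.2% of all protein-coding genes in the lists of days 0, 9 and 28. Over the 10 genes the median number of peaks was 3, 5.5 and 3 in the lists of days 0, 9 and 28, and over all protein-coding genes it was 1, 2 and 2. Most of these windows are longer than those of other genes, with a median of 104 kb against 55.4 kb. Counted per 100 kb of window, the 10 genes had medians of 2.82, 5.98 and 3.23 peaks in the 3 lists, against 1.69, 3.49 and 2.33 over all protein-coding genes.

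**Figure D1:**
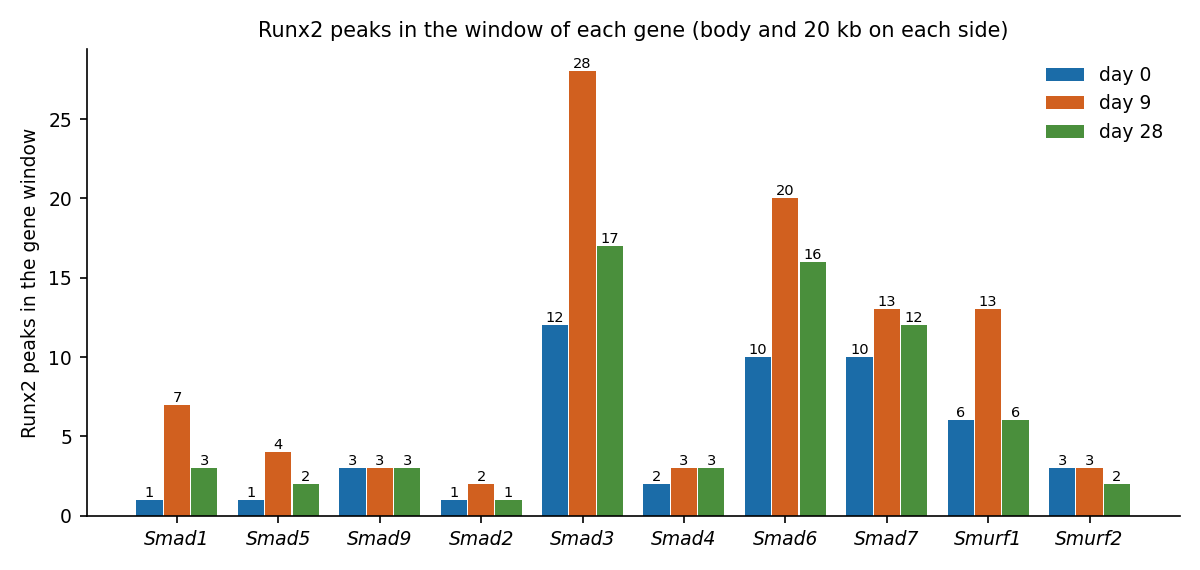
Number of Runx2 peaks (vertical axis) in the window of each gene at day 0, day 9 and day 28 (bars, 1 pooled list per time point, no replicates). *Smad3* reached 28 peaks and *Smad6* 20 peaks at day 9, while *Smad2* had at most 2.

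The day 9 list gave the highest total, 1.96 times that of day 0, and the whole day 9 list was 2.38 times as long as the day 0 list. The day 28 total was 1.33 times that of day 0, against 1.58 times for the lists. The excess at day 9 depended on the length of the lists. With all lists shortened to the length of the shortest, 25457 peaks, by keeping those of highest score, the windows held 49, 50 and 42 peaks. The peaks had a median width of 869 bp at day 0 in these windows, 586 bp at day 9 and 723 bp at day 28. Over the whole lists the median widths were 917, 554 and 763 bp, in the same order. With peaks of a list closer than 500 bp joined, the totals were 43, 79 and 58, and the ratio of day 9 to day 0 was 1.84.

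A Runx2 peak lay within 1 kb of an annotated start of all 10 genes at each of the 3 time points. A peak at a start in all 3 lists was found for 42.4% of all protein-coding genes, and the shares in the single lists of days 0, 9 and 28 were 43.6%, 53.3% and 51.1%. The score of a peak is 10 times the negative log10 of its p-value in the peak caller MACS and depends on depth, so each peak was ranked by its percentile within its own list. The highest-ranked start peak of the 10 genes had median percentiles of 56.7 on day 0 (lowest 14.2, highest 84.7), 85.7 on day 9 (lowest 72.7, highest 97.4) and 89.0 on day 28 (lowest 42.6, highest 97.8). Start peaks of all 9491 genes with one in each list had medians of 62.6, 85.7 and 82.6. All 10 genes had a higher percentile at day 9 than at day 0, as did 90.8% of those 9491 genes, so the count is near the background. The peaks compared were not always at the same site. For *Smad3* the highest-ranked start peak lay at an inner start at day 0 and at the 5′ end at days 9 and 28. For *Smad6* its centre was 1335 bp from the gene start at day 9 and -421 bp at day 28. From day 9 to day 28 the percentile was higher for 6 of the 10 genes, *Smad2*, *Smad4*, *Smad5*, *Smad6*, *Smad7* and *Smurf1*, and for 35.4% of the 9491 genes. Of these 6, *Smad4* had the same tied score of 3100 in both lists and *Smad2* differed by 0.0771 percentile points, so neither carries a direction. That leaves *Smad5*, *Smad6*, *Smad7* and *Smurf1*. Genes with such a tie in both lists also count as higher within the 35.4%, and they were not removed from it.

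**Figure D2:**
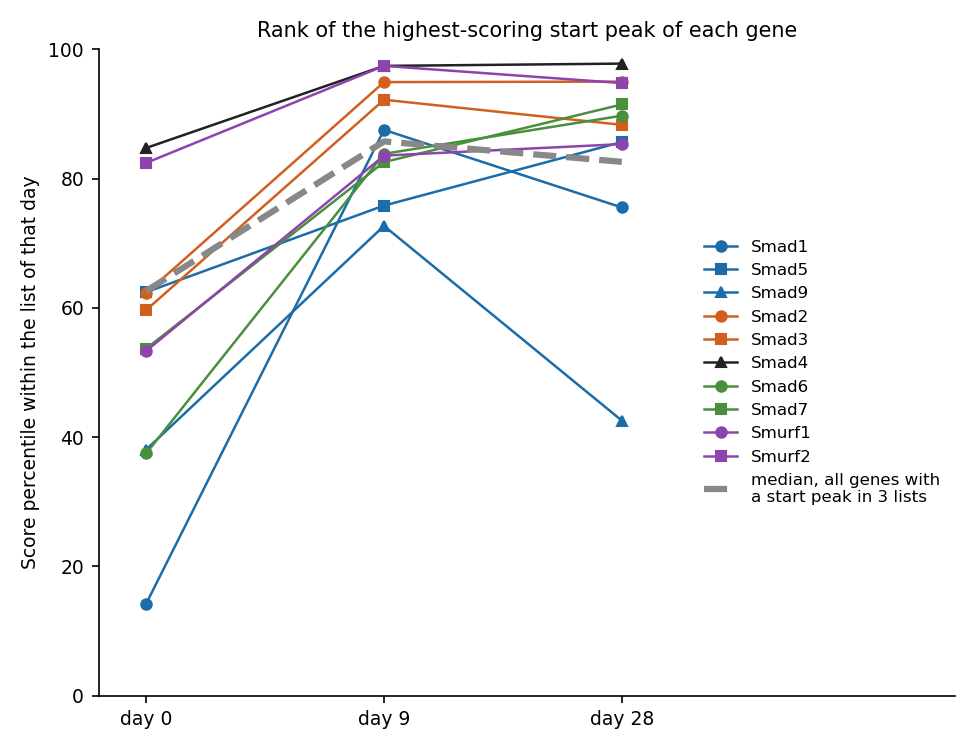
Score percentile within each list (vertical axis) of the highest-ranked peak within 1 kb of a start, for each of the 10 genes (lines) at day 0, day 9 and day 28. A line can join peaks at different sites, as for *Smad3* and *Smad6*. The dashed line is the median of the 9491 genes with a start peak in all 3 lists; every gene ranked higher at day 9 than at day 0, from 14.2 to 87.5 for *Smad1*, and *Smad9* was the lowest at day 28, at 42.6.

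Start peaks with a p-value of 1e-50 or below were found on day 0 for 2 of the 10 genes, *Smad4* and *Smurf2*. On day 9 all 10 genes had such a peak, and on day 28 the 9 genes other than *Smad9* had one. The shares over all protein-coding genes on these days were 14.8%, 39.5% and 38.4%. This threshold is a fixed score, so these counts depend on the depth of each time point as well. *Smad4* and *Smurf2* were also the 2 genes whose day 0 start peaks ranked above the median of the 9491 genes with a start peak in all 3 lists. That median was 62.6, and *Smad5* at 62.4 and *Smad2* at 62.3 lay just below it.

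Of the receptor-regulated Smads of the BMP branch, *Smad1*, *Smad5* and *Smad9* held 5, 14 and 8 peaks in the lists of days 0, 9 and 28, in 13 merged regions. A merged region joins the peaks of the 3 lists that share at least 1 bp. *Smad1*, which encodes a main effector of BMP signals in osteoblasts (chr8:81862294-81923417, minus strand), had 1, 7 and 3 peaks at days 0, 9 and 28. Its start peak ranked at percentiles 14.2, 87.5 and 75.5 of the 3 lists, the lowest of the 10 genes at day 0. The highest-ranked *Smad1* region at day 9 was not at the start but 75.4 kb from it, beyond the end of the gene (chr8:81847731-81848400). This region, which holds the tandem repeat, had no day 0 peak, and its percentile was 90.3 at day 9 and 27.4 at day 28. A region in intron 2 (chr8:81890108-81890676) had the same pattern, with percentiles of 85.4 at day 9 and 39.2 at day 28. The remaining 4 regions of *Smad1* were present at day 9 alone, and the highest of these ranked at percentile 46.9.

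*Smad5*, whose product is closely related to Smad1 (chr13:56804371-56843738, plus strand), had 1, 4 and 2 peaks. Its start region ranked at percentiles 62.4, 75.8 and 85.7, and 2 day 9 peaks lay within it. Both further regions were beyond the end of the gene and had no day 0 peak. The stronger, chr13:56845803-56847080, was found at day 9 alone, at percentile 71.1. *Smad9*, which encodes the remaining Smad of the BMP branch (chr3:54559504-54605179, plus strand), had 3 peaks in each list. Its own start region ranked at percentiles 38.1, 72.7 and 42.6, below the other genes at days 9 and 28. The other *Smad9* regions lay at the starts of neighbouring genes, 1 at the start shared by *Alg5* and *Exosc8* (chr3:54538266-54539810) and 1 at that of *Rfxap* (chr3:54610884-54612266). These neighbouring starts ranked above that of *Smad9* in every list, at percentiles 78.1, 92.9 and 93.7 for the first and 73.2, 86.0 and 80.2 for *Rfxap*. No peak was called inside the body of *Smad5* or *Smad9* away from the start.

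The receptor-regulated Smads of the TGF-beta branch differed most from each other. *Smad2* (chr18:76401234-76465385, plus strand) had 1, 2 and 1 peaks, the fewest of the 10 genes at day 9. Its start region ranked at percentiles 62.3, 94.92 and 94.995, and its single other region, in intron 2 (chr18:76433609-76433920), was found at day 9 alone at percentile 33.5. *Smad3* (chr9:63494574-63605801, minus strand) had 12, 28 and 17 peaks, the most of the 10 genes in each list. In the 3 lists, 52, 62 and 99 protein-coding genes had more peaks than *Smad3*. Its window is 151 kb long, and per 100 kb the values were 7.94, 18.5 and 11.2 peaks, at percentiles 94.3, 95.7 and 94.3 of all genes.

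Intron 1 of *Smad3*, which takes up 89.5 kb of the 151 kb window, held 18 of its 29 merged regions, not counting those at a start. The highest-ranked of these, 55.3 kb into the gene (chr9:63549060-63551870), had a day 0 peak with a score of 3136.03 that ranked 12 of 25457. The same region held 3 peaks at day 9, and its best day 9 peak and its day 28 peak had the score of 3100. Since 2699 day 9 peaks and 1468 day 28 peaks share that score, they cannot be ordered and all sit at percentiles 97.4 and 97.8 of their lists. A second region, 31.4 kb into the gene (chr9:63573937-63574875), ranked at percentile 98.8 at day 0 and had the tied score of 3100 at days 9 and 28. Both ranked above the region at the 5′ end of *Smad3* in every list, which stood at percentiles 48.3, 92.2 and 88.3.

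The other intron 1 regions of *Smad3* with peaks at days 0 and 9 differed in their order. The region at 20.2 kb (chr9:63585027-63586128) stood at percentiles 34.6, 93.7 and 84.1, and the region at 14.0 kb (chr9:63591396-63592184) stood at 76.2, 92.0 and 70.1. The region at 41.8 kb (chr9:63563444-63564459) ranked highest at day 0, at 68.5, 61.1 and 20.6, and the region at 51.4 kb (chr9:63553877-63554871) stood at 38.1, 44.3 and 28.3. The region at 79.6 kb (chr9:63525829-63526658) stood at 19.4 and 41.4 and had no day 28 peak. In intron 5, the regions chr9:63504770-63505548 and chr9:63506542-63507531 had peaks at days 0 and 28 and none at day 9, with day 0 percentiles of 66.5 and 43.0. A further intron 5 region (chr9:63510875-63511518), the intron 8 region (chr9:63498417-63499939) and the region beyond the gene (chr9:63480232-63481048) had peaks at days 9 and 28 and none at day 0. The region beyond the gene lies inside the adjacent gene *Aagab*. *Smad3* has 4 annotated starts, and an inner start near 91.0 kb carried a region with peaks in all 3 lists (chr9:63514035-63515632, percentiles 59.7, 77.1 and 71.6).

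**Figure D3:**
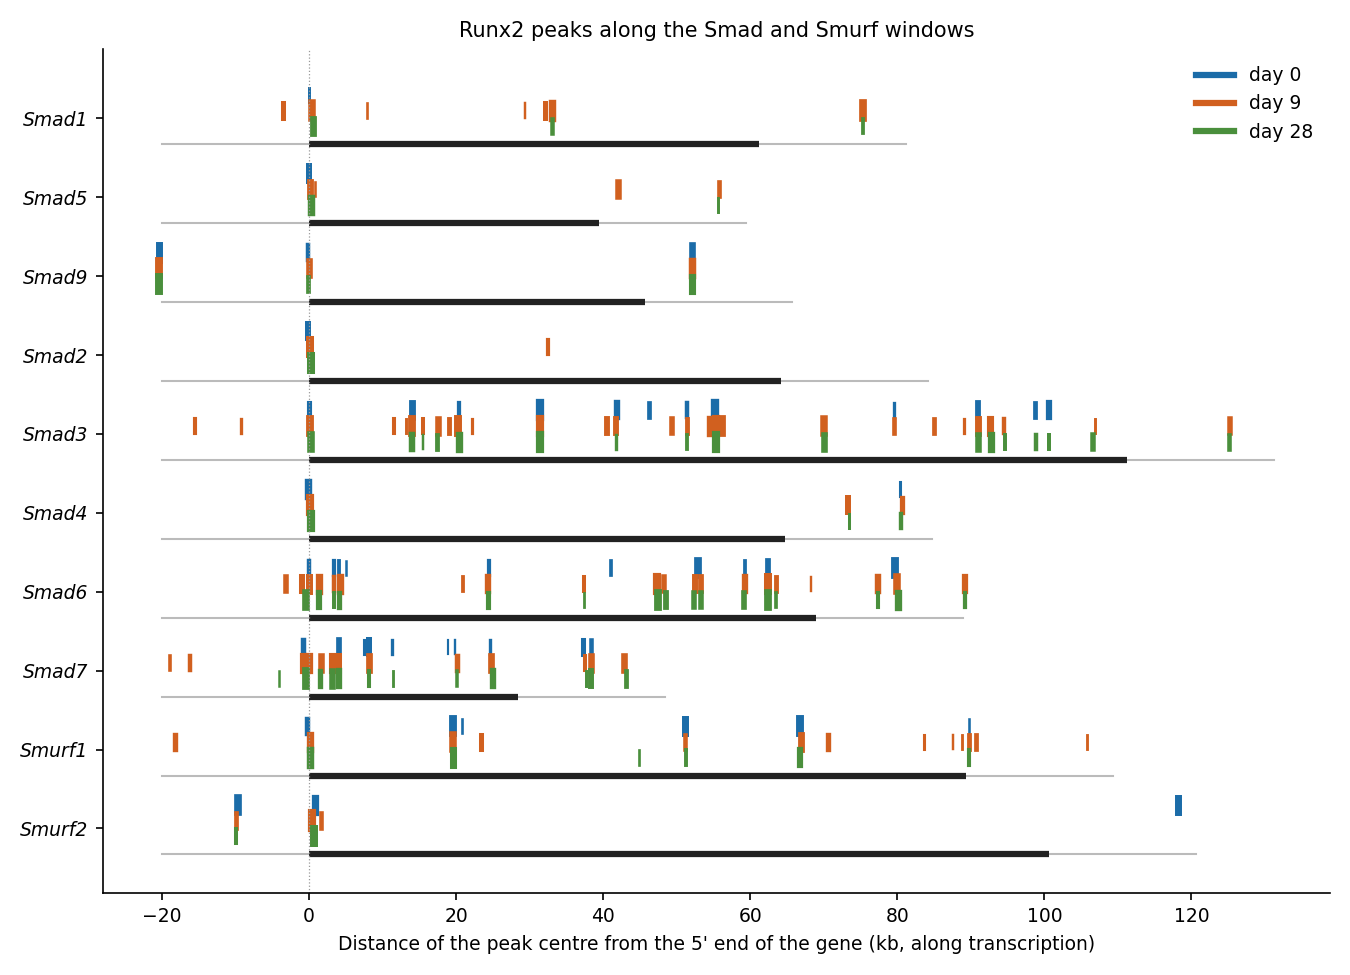
Positions of all Runx2 peaks in the 10 windows, as distance of the peak centre from the 5′ end of the gene in kb along the direction of transcription (horizontal axis), with day 0, day 9 and day 28 on separate levels. Black bars are gene bodies, grey lines are windows and a thicker mark is a higher score percentile. All 10 genes have marks of all 3 time points near 0 kb, and *Smad3*, *Smad6*, *Smad7* and *Smurf1* have many inside the gene.

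*Smad4*, the common partner of both branches (chr18:73798663-73863434, minus strand), had 2, 3 and 3 peaks. Its start region (chr18:73862514-73863965) had the highest day 0 percentile of the 10 starts, 84.7, and with the tied score of 3100 at both later time points. Both other regions lay beyond the end of the gene. The one at chr18:73782628-73783256 was found in all 3 lists at percentiles 15.6, 50.9 and 36.8, and the one at chr18:73789827-73790361 at days 9 and 28 at percentiles 62.4 and 14.9. No peak was called in the introns of *Smad4*.

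The genes of both inhibitory Smads together held 20, 33 and 28 peaks in the 3 lists, in 35 of the 100 merged regions. *Smad6*, whose product acts mainly on BMP signals (chr9:63800953-63869866, minus strand), had 10, 20 and 16 peaks, or 9.18, 18.4 and 14.7 per 100 kb. *Smad7*, whose product acts on both branches (chr18:75527183-75555589, plus strand), had 10, 13 and 12 peaks in the shortest of the 10 windows, 68.4 kb. Its density of 14.6, 19.0 and 17.5 peaks per 100 kb was the highest of the 10 genes in each list and stood at percentiles 99.3, 96.1 and 99.0 of all protein-coding genes. For *Smad6* the corresponding percentiles were 96.2, 95.6 and 97.8. By share of the window covered by peaks, *Smad7* was the highest at day 0 alone, at 11.3%. At day 9 it had 11.9%, against 12.0% for both *Smad3* and *Smad6*. At day 28 it had 12.4%, against 12.9% for *Smad6*.

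At *Smad6* the region at the start (chr9:63869343-63871230) stood at percentiles 37.5, 78.3 and 89.7, and an adjoining region over exon 1 (chr9:63867837-63869307) had peaks at days 9 and 28 alone, at 83.8 and 66.0. Intron 3, which is 53.5 kb long, held 10 of its 19 regions. The strongest at day 9, 47.4 kb into the gene (chr9:63821921-63822979), had no day 0 peak, the tied score of 3100 at day 9 and percentile 91.7 at day 28. A region 62.4 kb into the gene (chr9:63806728-63808192) had peaks in all lists at percentiles 58.9, 94.9 and 91.3. Between them, another intron 3 region had the opposite order and ranked highest at day 0 (chr9:63816174-63817794, percentiles 90.8, 62.1 and 55.6). Beyond the end of the gene, chr9:63789178-63791122 stood at percentiles 92.3, 88.3 and 83.5.

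At *Smad7*, 5 of the 16 regions lay within 5 kb of the start, and the others were spread over the window. The region just upstream (chr18:75525944-75527628) stood at percentiles 53.7, 82.5 and 91.5. It also covers the start of the non-coding transcript RP24-263P17.1 on the opposite strand, and its day 0 peak ended before the first base of *Smad7*. Regions over exon 1 and intron 1, 1.52 kb and 3.11 kb from the start, had peaks at days 9 and 28 but not at day 0. In intron 2, the region at 4.10 kb was found in all lists at percentiles 58.3, 79.1 and 67.7, and the region at 8.19 kb at 62.8, 74.5 and 31.7. No *Smad7* peak had a score of 3100 or more in any list.

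*Smurf1* (chr5:145637364-145726716, minus strand) had 6, 13 and 6 peaks, and *Smurf2* (chr11:106681380-106782029, minus strand) had 3, 3 and 2. The start region of *Smurf1* stood at percentiles 53.3, 83.5 and 85.3. That of *Smurf2* stood at 82.4, at the tied score of 3100 at day 9 and at 94.8 at day 28. Away from the start, both ligase genes had regions that ranked highest in the day 0 list. For *Smurf1* these were chr5:145659163-145660679 in intron 5 (percentiles 93.2, 75.9 and 65.6), chr5:145706664-145707564 in intron 1 (92.4, 87.9 and 79.5) and chr5:145675230-145676025 in intron 1 (78.4, 40.0 and 29.5). For *Smurf2*, chr11:106790982-106792475, at -9.70 kb from the start, stood at percentiles 89.9, 42.3 and 31.0. A *Smurf2* window region found at day 0 alone (chr11:106663140-106664462) ranked at percentile 78.3, the highest of the 7 regions of day 0 alone, but it lies inside the adjacent gene *Ccdc45*. No peak was called inside the 100.7 kb body of *Smurf2* beyond the merged region at its start.

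The 10 windows held 100 of the 67703 merged regions of the genome. By position, 16 lay within 1 kb of a start of their own gene, 54 in introns, 3 in exons, 10 upstream and 17 downstream of the gene. The intron share was 54% (95% interval 43.7% to 64.0%, exact Clopper-Pearson, covering counting error only), against 27.9% when the windows of all protein-coding genes were treated in the same way. That 27.9% is of 88755 pairs of a gene and a region, so a region in several windows counts once for each gene. None of the 100 regions was shared between the 10 windows. Gene bodies make up 62.7% of the bases of these 10 windows and 53.2% of those of all genes. The introns that held most regions belonged to *Smad3* (22), *Smad6* (12), *Smurf1* (8) and *Smad7* (7), and *Smad4*, *Smad5*, *Smad9* and *Smurf2* had none.

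By time point, 37 of the 100 regions had peaks at days 0, 9 and 28 (37%, interval 27.6% to 47.2%), against 27.4% of all regions. Another 29 had peaks at day 9 alone (29%, 20.4% to 38.9%, against 34.5%) and 21 at days 9 and 28 (21%, 13.5% to 30.3%, against 21.1%). Day 0 alone had 7 (against 5.6%), days 0 and 28 had 3 (against 2.06%) and days 0 and 9 had 1 (against 1.69%). Day 28 alone had 2 regions (2%, 0.243% to 7.04%), against 7.59% of all regions, and both were weak, at percentiles 6.88 and 9.50. The share of the genome lay outside the interval of the 10 genes for day 28 alone and just below it for all 3 time points, and inside it for the 5 other groups.

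**Figure D4:**
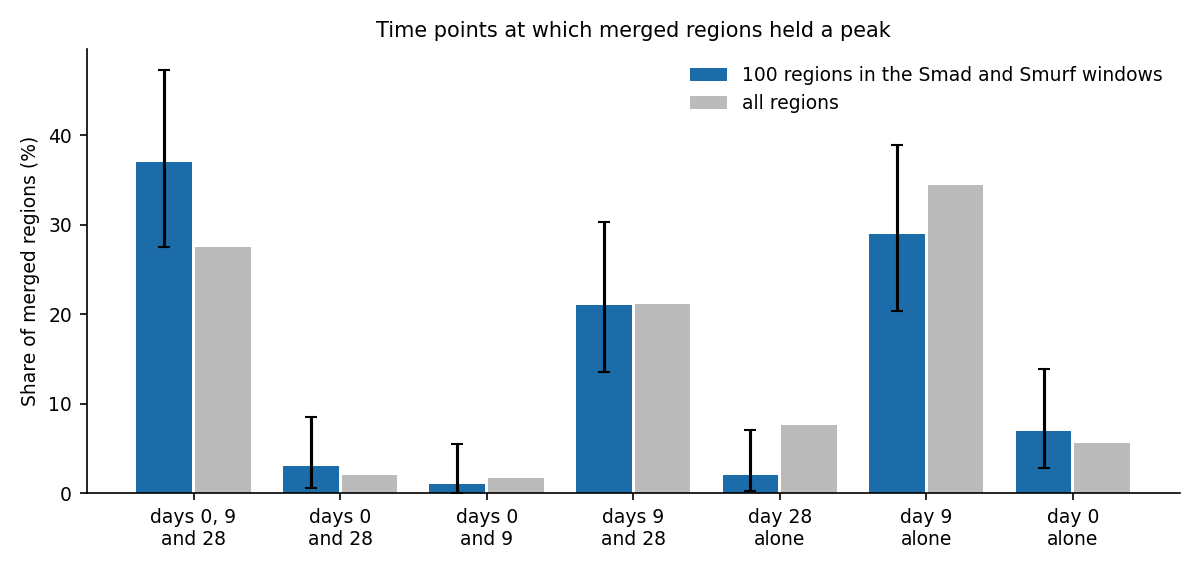
Share of merged regions in percent (vertical axis) by the time points at which they held a peak, for the 100 regions of the 10 windows (blue, with exact binomial 95% intervals that cover counting error only) and for all 67703 regions (grey). Regions with peaks at all 3 time points made up 37% of the former and 27.4% of the latter.

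Away from the starts of protein-coding genes the regions were also often shared by all lists. Of the 82 such regions in the 10 windows, 24 had peaks at all 3 time points (29.3%, interval 19.7% to 40.4%), against 17.8% of all 54440 such regions of the genome. At starts, all 10 genes had at least 1 region of this kind. Of all protein-coding genes, 42.4% had a start peak in all 3 lists, which need not lie in 1 region. The share over all start regions of the genome is not given here, so the count is not read as a trait of these genes. Regions of a window are neighbours in the same chromatin and are not independent, and the intervals do not allow for this.

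Ranks at day 0 and at day 9 differed in 1 direction at starts and in both directions elsewhere. Among regions with peaks at both days, all 11 at starts of the 10 genes ranked higher at day 9, with a median difference of 30.2 percentile points, and 90.2% of such regions of the genome did so, with a median of 21.0. Of the 25 regions away from starts, 15 ranked higher at day 9 (60%), against 60.6% of such regions of the genome. The median difference was 15.8 points for these 25 regions and 6.80 points for such regions of the genome. The difference, day 9 minus day 0, ran from -47.6 points upstream of *Smurf2* (89.9 at day 0 and 42.3 at day 9) to 59.1 points in intron 1 of *Smad3* (34.6 and 93.7). A percentile only places a peak among the others of its own list, so these differences are not changes in occupancy.

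**Figure D5:**
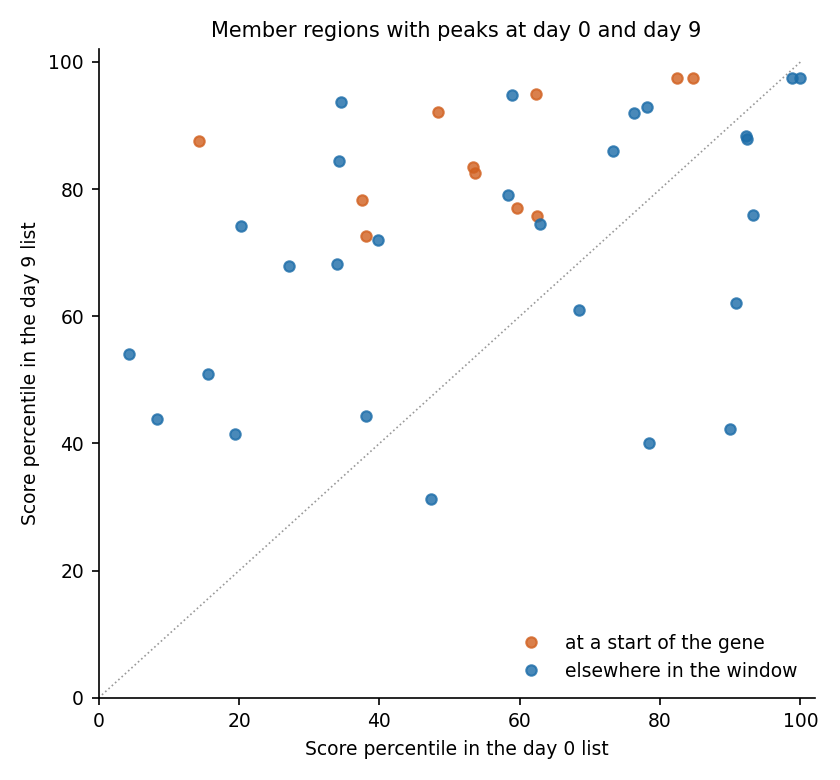
Score percentile in the day 0 list (horizontal axis) and in the day 9 list (vertical axis) of each region of the 10 windows with peaks at both days; the dotted line marks equal percentiles. The 11 regions at starts of the 10 genes lie above the line, and regions elsewhere lie on both sides of it.

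The core TGTGGT was found on either strand within 50 bp of the centre of 20 of the 100 regions (20%, interval 12.7% to 29.2%), against 24.2% of all regions. In flanks 450 to 550 bp from the centres it was found in 10 of 200 (5%), against 7.35% over all regions. Of the 20 regions with the core, 19 lay away from starts, where the share was 23.2% (14.6% to 33.8%) against 28.3% over the genome. At starts of the 10 genes 1 of 16 regions held it (6.25%, 0.158% to 30.2%), a *Smad3* region at the inner start (chr9:63512690-63513653). Over the genome the core was also rarer at starts, as the share was 24.2% over all regions and 28.3% away from starts. Which start region of the 10 genes held the core depended on the centre used. Within 50 bp of the centre of the highest-ranked peak of a region, the *Smurf2* start region held the core and this *Smad3* region did not. The 19 regions with the core away from starts had a median percentile of 74.5 at day 9, and the 52 without it that had a day 9 peak had 45.6. No value over all regions of the genome stands beside these medians. Among the former were the *Smad3* region at 31.4 kb and the *Smad6* region at 62.4 kb, while the *Smad3* region at 55.3 kb did not hold the core at its centre. The day 9 peak of this *Smad6* region did not hold the core within 50 bp of its own centre.

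For each of the other motifs searched, the interval of the share held the value of all regions. TGCGGT, a variant of the Runx2 core, was found in 2 regions (2% against 3.32%) and the AP-1 sites TGACTCA and TGAGTCA in 3 (3% against 3.19%). The Smad-binding element CAGAC was found in 22 (22%, 14.3% to 31.4%, against 25.3%), and in 19% of the flanks. The palindrome GTCTAGAC, which holds 2 such elements, was found in none of the 100 regions and in 0.0827% of all regions.

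The gene starts shared a base composition rich in GC and CpG. From 250 bp before to 50 bp after the 5′ end of the gene, the median GC content of the 10 genes was 71.5% (57% for *Smad1* to 80.3% for *Smurf2*), against 55% over all genes and 61% over genes with a start peak in all 3 lists. The ratio of observed to expected CpG had a median of 0.925, against 0.534 and 0.792. Only the start of *Smad4* held TGTGGT in this stretch, and 15.3% of all genes did.

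Start peaks were also counted at genes that act with the Smads, beside the 42.4% of all protein-coding genes with a start peak in all 3 lists. Of 13 receptor and co-receptor genes, 8 had a start peak in all 3 lists, as did 5 of 7 further ligases of the Nedd4 family, 9 of 10 other regulators of Smads, 9 of 10 nuclear partners and 7 of 8 genes that respond directly to Smads. Among the receptors, the BMP type I receptor gene *Acvr1* had the most day 9 peaks, 11, and *Acvr1c* had none. Among the ligases *Wwp2* had 25 day 9 peaks, close to the 28 of *Smad3*, and *Wwp1* had 1. Among the other regulators, *Pmepa1*, whose product sequesters receptor-regulated Smads, had 11, and *Bambi*, a pseudoreceptor gene, had 1. The corepressor gene *Ski* had 26 and *Trim33* and *Tgif2* had 2 each, the range of the nuclear partners. Among the response genes, *Junb* had 14 and *Msx2* had 2. The median density at day 9 was 4.03 peaks per 100 kb for the receptors, 3.00 for the further ligases, 2.27 for the other regulators, 4.10 for the nuclear partners and 16.6 for the response genes. It was 5.98 for the 10 genes and 3.49 over all protein-coding genes.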

How the data were processed

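Per the labels and the study's methods, reads of Runx2 ChIP-Seq libraries at days 0, 9 and 28 were processed with CASAVA (version 1.6), mapped to mm9 with Bowtie (version 0.12.8), pooled by time point and searched for peaks with MACS (version 1.4.1, default parameters, day 9 input as control), keeping those at or below a p-value of 1e-10. The authors deposited 1 peak list per time point, with the score of each peak, the −log10 of its MACS p-value multiplied by 10. The lowest score in each list was 100. Depth is not given in the lists. The input libraries and read signals were not analysed here.

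Peak coordinates all lay within NCBIM37. Protein-coding transcripts of GENCODE M1 gave the genes and starts, without the 13 mitochondrial genes, and all 10 symbols and all 48 pathway genes matched. Exons and introns are those of the transcript with the longest coding sequence. Peaks sharing 1 bp were merged over the genome, percentiles used mid-ranks for ties, and motifs were searched on both strands. The genes named are the 10 members with their start regions, their highest-ranked regions at day 9 and among regions of all or 1 time point, neighbouring genes, and the genes with most and fewest day 9 peaks of each pathway list; further regions were chosen after their values were seen. The members and lists were chosen with earlier results of these data known. Alternatives covered the p-value, the window, the overlap, the list length, the start definition and the motif. Procedures were tested on simulated data. Scripts ran in Python 3.11.15 with SciPy 1.17.1, NumPy 2.4.6 and, for figures, Matplotlib 3.10.9.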

Additional observations from a re-analysis of the deposited data

How the results depend on the processing

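No test was made between time points, so the values could be compared across settings by their size alone, and leaving out a replicate was not possible because libraries were pooled. No paired analysis was possible because each time point has a single pooled list. The total of the 10 windows was 32 peaks at day 0 with a p-value of 1e-20, and 14, 43 and 28 peaks at days 0, 9 and 28 with 1e-50. With 50 kb on each side it was 146 at day 9 and 99 at day 28. With lists of equal length it was 50 at day 9 and 42 at day 28, and the order of the time points was then not kept, as it was in the 7 other settings. *Smad3* and *Smad6* were among the 3 genes with most day 9 peaks in every setting. With only the 100 bp around peak centres merged, regions of all 3 time points made up 12.1%, of day 28 alone 12.1% and of day 0 alone 17.02%; this setting uses narrower intervals than the peaks themselves. With 1e-20, regions of days 0 and 9 made up 6.94%, and with equal lists day 9 alone made up 9.09% and day 0 alone 25.8%. At 1e-50, 2 genes had a start peak at day 0; in the 14 other values of start peaks at least 9 of 10 genes had one. The number of merged regions and the share with the Runx2 core stayed within 1.5 times and within the interval of the reported values, in 3 of 3 settings each.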

Other observations

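*Smad3* and *Smad6* lie next to each other on chromosome 9, and the 155 kb between their windows (chr9:63625802-63780952) hold no start of a protein-coding gene. On days 0, 9 and 28 this stretch held 9, 19 and 12 Runx2 peaks, or 5.80, 12.2 and 7.73 per 100 kb. These densities were below those of both flanking windows in each list and above the medians of all protein-coding gene windows. The highest-ranked day 0 peak there stood at percentile 98.5, and the tied score of 3100 was reached at days 9 and 28.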
